A study of Mus musculus with 15 samples.

Results

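The fragments of arginine transfer RNAs (tRNAs) in mouse sperm are the 5 entries ArgACG, ArgCCG, ArgCCT, ArgTCG and ArgTCT of a table of 47 tRNA fragments (tRFs). They were taken by name, since a tRF is named by its amino acid and the anticodon of its tRNA, and they are all arginine entries among those 47. Small RNA-seq was done on caudal epididymal sperm of C57BL/6 males (substrain C57BL/6NTac), in 15 libraries. Fathers (F0) ate a control diet (CO, 3 libraries) or a lard-based obesity-inducing diet (OID, 4 libraries) for 7 weeks, from 3 to 10 weeks of age, and were then mated with females kept on the CO diet. Sons (F1) came from CO fathers (4 libraries) or OID fathers (4 libraries) and were themselves all fed the CO diet, so that OID F1 names the diet of the father. Pups of several dams were cross-fostered, no group carried an altered gene, and the ages at sperm collection are not given in the sources used here. Somatic cells were lysed before RNA extraction. The table holds small RNAs only, so the sperm label was not checked against marker genes. The question addressed is whether the diet difference in sperm tRFs covered the whole arginine family or single anticodons.

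Arginine is one of the amino acids with 6 codons, and its tRNAs fall into boxes. ArgACG, ArgCCG and ArgTCG read codons that start with CG (the CGN box, where N is any base). ArgCCT and ArgTCT read AGG and AGA (the AGR box). In mature sperm, tRFs mostly come from the 5′ end of the tRNA, which is cut near the anticodon loop, and they are a major class of sperm small RNA that is known to change with the diet of the male.

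In GRCm38 (NCBI RefSeq), 24 arginine tRNA loci are annotated on 11 chromosomes: 6 for ArgACG, 3 for ArgCCG, 5 for ArgCCT, 5 for ArgTCG and 5 for ArgTCT. A tRF entry sums the fragments of all its loci, so the values do not tell loci apart. Loci of the first 4 tRNAs are 73 bases long and those of ArgTCT 74 to 87, most of which are known to carry a short intron after the anticodon. Sequences could be read only for loci covered by a RefSeq promoter region or a GENCODE M21 transcript. No ArgCCG or ArgCCT locus was covered, so these tRNAs could not be compared. The sequences shown are those of an ArgTCG locus, an ArgTCT locus and the start of an ArgACG locus. The other loci of these tRNAs were not compared. ArgTCG and ArgTCT are also the pair whose order differed between libraries. Anticodons are in capitals, at bases 34 to 36 counted from the 5′ end of the locus, and sequences are from the RefSeq and GENCODE M21 tables of GRCm38.
n-TRtcg5 (ArgTCG, chr7:79466419-79466491, plus strand, in an exon of the GENCODE gene Gm10616): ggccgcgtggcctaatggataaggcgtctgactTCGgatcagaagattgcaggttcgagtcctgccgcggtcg
n-TRtct2 (ArgTCT, chr3:122292948-122293032, minus strand, in an exon of the processed transcript Gm17494): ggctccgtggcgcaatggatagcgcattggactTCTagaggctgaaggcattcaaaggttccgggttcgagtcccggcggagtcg
n-TRacg6, first 25 bases (ArgACG, chr14:54517696-54517720, plus strand, outside annotated genes): gggccagtggcgcaatggataacgc
Over their first 30 bases, the ArgTCG and ArgTCT loci were identical at 21 positions (70%). Over the first 25 bases, the ArgACG locus was identical to the ArgTCT locus at 21 positions and to the ArgTCG locus at 19. The authors weighted reads shared between tRNAs by the alignment score and added them to the unique reads, so a part of each value may come from a tRNA of similar sequence.

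The deposited values, called normalized values here, are whole counts multiplied by 1 factor per library plus an offset of 0.5, and they were not divided by length. The whole counts are called reads here, although the methods describe weighted reads. Libraries held 17966 to 5363471 tRF reads, and 141 (CO F0 replicate 3) to 75162 reads on arginine tRFs. OID libraries were deeper: the 8 held at least 295389 tRF reads and 6 of them over 1000000, whereas 1 of the 7 CO libraries did. On the log2 scale the difference in depth had a two-sided exact permutation p of 0.00653 over both generations (labels permuted within generation), 0.114 in F0 and 0.0857 in F1. The smallest p that the numbers of libraries allow is 0.0571 in F0, 0.0286 in F1 and 0.000816 over both. The labels do not state that libraries of a group came from separate males, so a p measures the spread between these libraries.

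By normalized value, ArgCCT came first and was followed by ArgCCG and ArgACG in all 15 libraries. ArgTCG was above ArgTCT in 9 libraries, which were the 7 CO libraries and OID F0 replicates 2 and 4. In the other 6 libraries, all OID, ArgTCT was above ArgTCG. Among the 47 tRFs, ArgCCT ranked between 8 and 19 by library, ArgCCG between 13 and 24, ArgACG between 23 and 30, ArgTCG between 27 and 41 and ArgTCT between 33 and 40. All 5 had reads in each library, but the shallowest, CO F0 replicate 3, held 13 ArgTCG and 5 ArgTCT reads, and 1 read there was worth a normalized value of 48.2.

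ArgCCG had lower values in OID sperm of both generations, without overlap between the diets. Its normalized values were 3757, 2767 and 2169 in CO F0 and 1055, 1436, 1312 and 1366 in OID F0 libraries. In F1, CO libraries held 4339, 2553, 2517 and 3136, and OID libraries 1620, 1691, 1147 and 1739. Every OID library was below every CO library in F0 and in F1. Fathers on the CO diet had a mean of 2897 ± 802 (SD, n = 3) and those on OID one of 1292 ± 166 (SD, n = 4), which is 0.446 of the former. Sons of CO fathers had a mean of 3136 ± 851 (SD, n = 4) and sons of OID fathers one of 1549 ± 273 (SD, n = 4), or 0.494 of the former. Such a separation downwards was found for 5 of the 47 tRFs in F0 (10.6%) and for 4 in F1 (8.51%). Because RNA was taken from bulk sperm, fewer sperm with a fragment and less of it per sperm cannot be told apart.

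ArgTCG was also lower in OID sperm, with an overlap in F0 on the deposited scale. Its normalized values were 335, 582 and 627 in CO F0 against 131, 379, 193 and 223 in OID F0, where OID replicate 2 lay above the lowest CO library. CO F1 libraries held 242, 657, 300 and 456, and OID F1 libraries 166, 161, 126 and 178, without overlap. The ratio of the group means was 0.450 in F0 and 0.382 in F1. As a percent of the tRF sum of each library, ArgTCG was at 0.0621, 0.0828 and 0.0724 in CO F0 and at 0.0232, 0.0386, 0.0367 and 0.0198 in OID F0, without overlap, and in F1 it did not overlap either. On that scale every OID library was below every CO library for 2 of the 47 tRFs in F0 (4.26%), ArgCCG and ArgTCG, and for 4 in F1 (8.51%), both again among them. For ArgCCG the F0 groups nearly met on that scale. CO F0 replicate 3, with 45 ArgCCG reads, was at 0.2505 and OID F0 replicate 3 at 0.2496, a gap too small to rest on. The two-sided exact permutation p of these percents over both generations was 0.000816 for ArgCCG and for ArgTCG. This is the smallest possible value, which follows from the separation just described and adds nothing to it. For the other members it was 0.153 (ArgACG), 0.184 (ArgCCT) and 0.505 (ArgTCT). The 2 highest values of all, 627 and 657, came from the 2 libraries with under 100000 tRF reads, and the lowest CO value, 242, from the deepest CO library.

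ArgACG, the third member of the CGN box, whose first anticodon base is converted to inosine in the mature tRNA, overlapped between diets. It was at 864, 814 and 1012 in CO F0 and at 486, 639, 1116 and 540 in OID F0 libraries, where 3 OID libraries lay below all CO libraries and replicate 3 above them all. CO F1 libraries held 820, 751, 825 and 1159 and OID F1 libraries 549, 584, 553 and 901, again with 3 OID libraries below all CO libraries. The ratio of means was 0.775 in F0 and 0.727 in F1.

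The OID means of the AGR box tRFs, ArgCCT and ArgTCT, lay on opposite sides of the CO means, but for ArgCCT this rested on single CO libraries. ArgCCT values were 9092, 2914 and 2747 in CO F0 and 2828, 4876, 2607 and 2016 in OID F0 libraries. CO F1 libraries held 13876, 2834, 4881 and 7059, and OID F1 libraries 4687, 6628, 2502 and 6904. The diets overlapped in both generations, and the highest ArgCCT value of a group was up to 4.90 times its lowest (CO F1). Without the highest CO library, the difference in mean log2 level of ArgCCT, OID minus CO, changed its sign. It was 0.045 in F0 without CO F0 replicate 1 and 0.064 in F1 without CO F1 replicate 1. ArgTCT was at 101, 90.9 and 241 in CO F0, 227, 96.9, 356 and 138 in OID F0, 153, 263, 159 and 163 in CO F1, and 177, 203, 223 and 233 in OID F1 libraries. It was the only member with a higher mean in OID, by ratios of 1.41 in F0 and 1.13 in F1, and its groups overlapped in both generations.

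**Figure D1:**
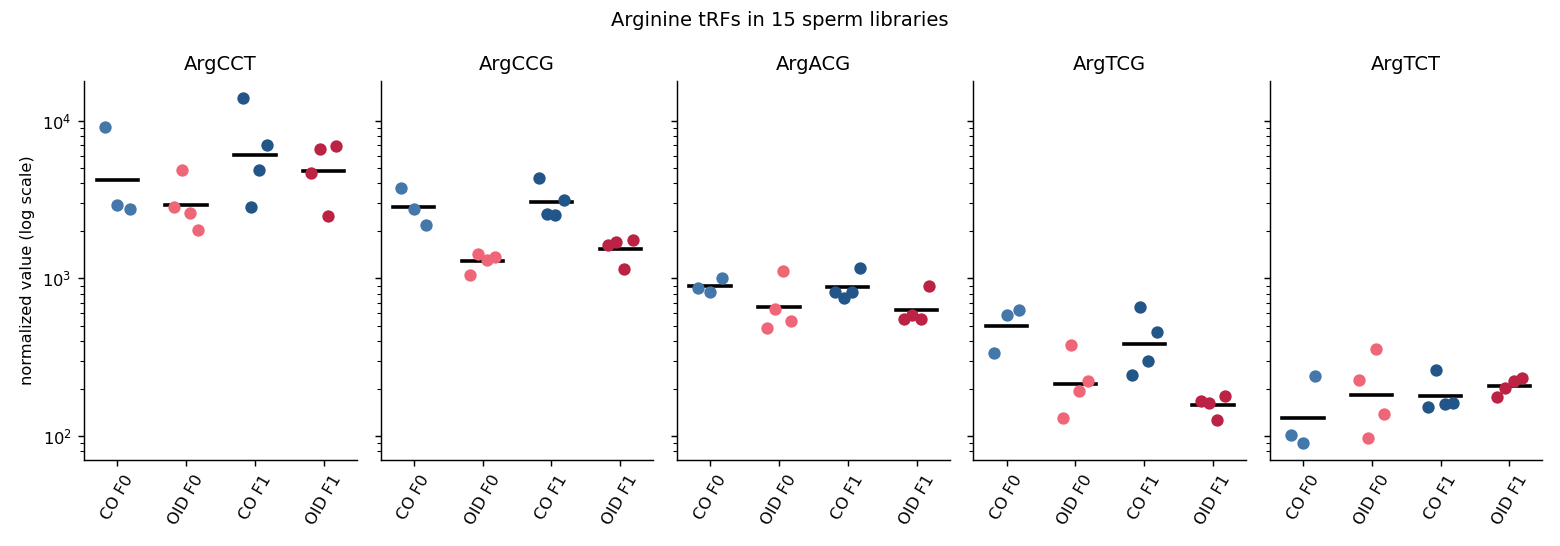
Normalized value (log axis) of the 5 arginine tRFs in the 15 sperm libraries, 1 point per library, with a line at the geometric mean of each group (CO in blue, OID in red). The OID points of ArgCCG lie below all CO points in F0 and in F1, those of ArgTCG do so in F1, and those of ArgCCT and ArgTCT overlap with CO in both generations.

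Tested with limma on log2 of the normalized value + 1 and Benjamini-Hochberg adjustment over the 47 tRFs, 0 of 47 tRFs (0%) passed an adjusted p of 0.05 in F0 and 0 of 47 (0%) in F1. Without adjustment, 10 tRFs had a p under 0.05 in F0 and 8 in F1, ArgCCG and ArgTCG among them in both. Limma-voom on the recovered reads also called 0 in each generation, with 9 and 9 at an unadjusted p under 0.05. For ArgCCG the log2 fold change of OID against CO was -1.14 (SE 0.29, limma adjusted p = 0.0733) in F0 and -1.0 (SE 0.28, limma adjusted p = 0.108) in F1. For ArgTCG it was -1.20 (SE 0.42, limma adjusted p = 0.133) in F0 and -1.29 (SE 0.34, limma adjusted p = 0.108) in F1. The F0 call depends on the spread used, since 1 fit over all 4 groups gave ArgCCG an adjusted p of 0.0315 in F0.

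With 1 diet difference fitted to both generations, 5 of 47 tRFs passed (10.6%), and 2 of the 5 members were among them, both lower. This fit and the permutation tests over both generations treat all 15 libraries as independent. The labels do not say which F1 males are sons of which F0 males, or whether sons are brothers. Relatedness was therefore not modelled, and the errors may be too small. ArgCCG fell by 1.06 on the log2 scale (SE 0.21, limma adjusted p = 0.00403) and ArgTCG by 1.25 (SE 0.27, limma adjusted p = 0.00458), the lowest adjusted p-values of the 47. The other 3 that passed, GlnCTG, SerCGA and ValTAC, were higher in OID. ArgACG had a log2 fold change of -0.46 (SE 0.23, limma adjusted p = 0.184), ArgCCT of -0.42 (SE 0.36, limma adjusted p = 0.379) and ArgTCT of 0.33 (SE 0.29, limma adjusted p = 0.382), none of which passed. With 1 library left out, ArgCCT over both generations lay between -0.61 and -0.18 (the latter without CO F0 replicate 1, and -0.23 without CO F1 replicate 1), and ArgTCT between 0.18 (without OID F0 replicate 3) and 0.49 (without CO F0 replicate 3). The two-sided exact permutation p of the mean log2 level, with labels permuted within generation, was 0.000816 for ArgCCG, the smallest possible, 0.00163 for ArgTCG, 0.0376 for ArgACG, 0.299 for ArgCCT and 0.278 for ArgTCT, unadjusted over these 5 tests. For ArgACG this p reached 0.0952 without CO F0 replicate 3, and was over 0.05 without any 1 of 10 of the 15 libraries. For ArgTCT it was 0.00762 among the 13 libraries with at least 100000 tRF reads. The 2 libraries left out there, both CO, held the highest CO values of ArgTCT (241 from 5 reads and 263 from 14 reads). On the same 13 libraries limma gave ArgTCT a log2 fold change of 0.62 (adjusted p = 0.0985), which did not pass. ArgCCG, ArgTCG, SerCGA and ValTAC are tRFs that the study itself singled out on these libraries, so their calls are not independent evidence. The study reported these and SeCTCA as altered in fathers and in sons, with a correction for multiple testing. Here limma passed 0 of 47 tRFs in each generation fitted alone. SeCTCA also did not pass over both generations (log2 fold change -1.23, SE 0.51, limma adjusted p = 0.113).

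The diet differences of the members did not differ detectably between generations. Tested as an interaction of lineage diet and generation, the 5 differences of log2 fold change lay between -0.26 and 0.18, and limma called 0 of 47 tRFs, with 2 at an unadjusted p under 0.05 and 3 by limma-voom, which also called 0. F1 against F0, at equal lineage diet, also gave 0 calls among 47, with 7 at an unadjusted p under 0.05 and 5 by limma-voom, which called 0. ArgCCT had the largest member difference there, 0.64 higher in F1 on the log2 scale (SE 0.36, limma adjusted p = 0.414).

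Of the arginine sum, ArgCCT made up 48.4% to 65.2% by group mean, so a test of the sum weighs that tRF most. Taken as a family, the arginine sum was lower in OID by a log2 fold change of -0.71 (SE 0.36, limma adjusted p = 0.293) in F0 and of -0.56 (SE 0.35, limma adjusted p = 0.323) in F1, with adjustment over the sums of 21 amino acids. Over both generations it was -0.63 (SE 0.27, limma adjusted p = 0.0922), which did not pass, while 3 of the 21 sums did (14.3%), namely aspartate, glutamine and valine. The arginine call depends on the setting. Its limma adjusted p was 0.168 with a block for the replicate number and rose to 0.261 without CO F0 replicate 1. The sum passed in 4 of 23 alternatives, namely log2 depth as a covariate (limma adjusted p = 0.0291) and those that follow. The log2 fold change was -0.86 with an adjusted p of 0.0429 by limma-voom on all 15 libraries, -0.83 with an adjusted p of 0.0352 among the 13 libraries with at least 100000 tRF reads, and -0.74 with an adjusted p of 0.0484 without CO F1 replicate 2. In F0 the sum was at -0.37 without CO F0 replicate 1, and in F1 at -0.28 without CO F1 replicate 1 and -0.32 without OID F1 replicate 3. As a share of the summed tRF values, arginine made up 1.48% in CO F0 (2.62%, 1.02% and 0.785% by library) and 0.759% in OID F0 (0.836%, 0.757%, 1.06% and 0.380%). In F1 it was 1.91% in CO (2.81%, 1.05%, 1.39% and 2.38%) and 1.14% in OID (0.971%, 1.40%, 0.652% and 1.53%). The groups overlapped in both generations. CO F0 replicate 1 carried a large part of the F0 difference, which was -0.718 percentage points with that library and -0.144 without it.

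**Figure D2:**
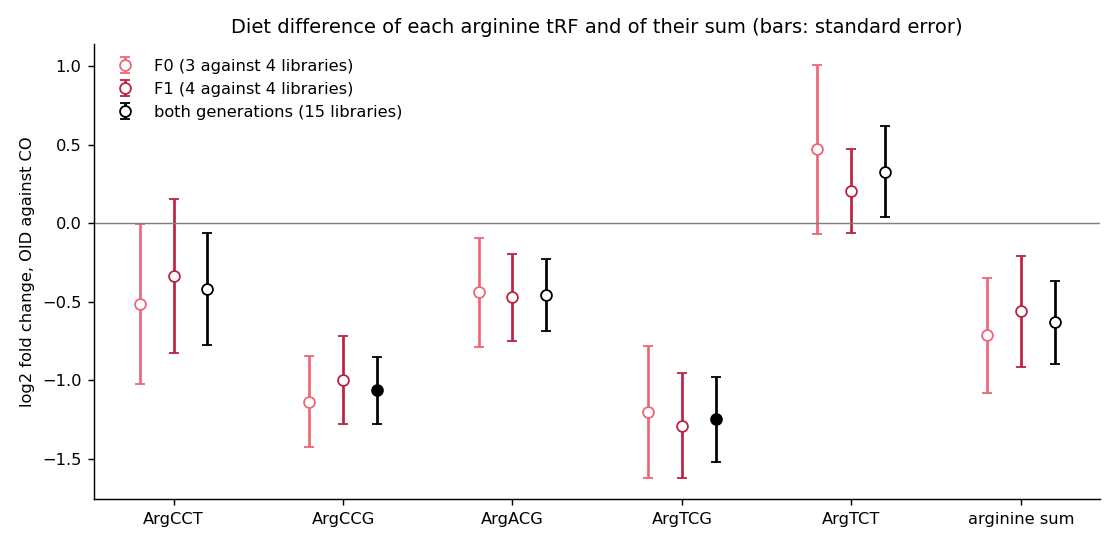
Log2 fold change of OID against CO (limma, bars are standard errors) of each arginine tRF and of the arginine sum, in F0, in F1 and over both generations; filled symbols mark an adjusted p under 0.05. The filled symbols are those of ArgCCG (-1.06) and ArgTCG (-1.25) over both generations, and ArgTCT is the one entry above 0.

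In each generation 4 of the 5 had a log2 fold change below 0, as did 23 of all 47 tRFs in F0 and 22 in F1, and the median over both generations was -0.46 for arginine and 0.05 for all tRFs. From ArgTCG to ArgTCT the fold changes over both generations spanned 1.58 on the log2 scale, the widest span of the 12 amino acids with at least 2 anticodons (median 0.701), of which arginine and leucine have the most anticodons, 5 each. In F0 alone arginine came second to serine (1.67 and 1.82), and in F1 alone second to leucine (1.5 and 1.75). These spans are descriptions without a test.

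ArgCCT made up 48.4% ± 13.7 of the arginine sum in the CO fathers (n = 3, errors are SD), 54.8% ± 9.46 in the OID fathers, 56.7% ± 12.9 in sons of CO fathers and 65.2% ± 7.34 in sons of OID fathers (n = 4 each). ArgCCG made up 32.4% ± 6.04, 24.3% ± 5.38, 28.4% ± 5.84 and 20.9% ± 3.64 in the same order of groups. Over both generations its share differed by -7.83 percentage points, OID minus CO (two-sided exact permutation test, p = 0.0139), and among the 13 libraries with at least 100000 tRF reads the p was 0.0610. ArgACG took 10.8% ± 4.42, 12.9% ± 5.02, 8.51% ± 2.91 and 8.78% ± 2.51. ArgTCG took 6.57% ± 3.68, 4.13% ± 1.21, 4.46% ± 3.43 and 2.15% ± 0.485, and ArgTCT 1.85% ± 1.5, 3.93% ± 2.17, 1.93% ± 1.28 and 2.97% ± 1.29, differences that did not pass the test (exact permutation p = 0.0882 and p = 0.0873 over both generations). These p-values turned on single libraries: the exact permutation p of the ArgTCG share was 0.0133 without CO F0 replicate 1 and 0.0457 without CO F1 replicate 1. That of the ArgTCT share was 0.0457 without CO F0 replicate 3, 0.0310 without CO F1 replicate 2 and 0.0357 without OID F0 replicate 2, and 0.00381 among the 13 libraries with at least 100000 tRF reads. The 2 libraries under that depth, CO F0 replicate 3 and CO F1 replicate 2, had the highest CO shares of ArgTCT (3.55% and 3.73%). The ArgCCT share, with a p of 0.187, came to 0.0381 without CO F0 replicate 1. The depth sets the precision of these shares. In CO F0 replicate 3 the ArgTCG share of arginine reads was 9.22% with a 95% Wilson interval of 5.47% to 15.1%, whereas in OID F1 replicate 4 it was 1.79% with an interval of 1.70% to 1.89%, both for counting error only.

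When the log2 share of each tRF within its amino acid was tested with limma over the 38 tRFs of amino acids with at least 2 anticodons, 0 of 38 passed over both generations (0%), with 11 at an unadjusted p under 0.05. ArgCCG had a log2 share difference of -0.43 (SE 0.14, limma adjusted p = 0.0929) and ArgTCT of 0.96 (SE 0.43, limma adjusted p = 0.161), and both had an unadjusted p under 0.05 (0.00733 and 0.0448). For ArgTCG it was -0.62 (SE 0.39, limma adjusted p = 0.368), with a range of -0.88 (without CO F0 replicate 1) to -0.37 (without CO F1 replicate 2) when 1 library was left out. With log2 depth as a covariate the ArgCCG share difference was -0.25 over both generations (limma adjusted p = 0.315) and -0.13 in F1, where it was -0.44 without the covariate. With the same covariate over both generations, that of ArgTCG turned from -0.62 to 0.39 (limma adjusted p = 0.385), and that of ArgTCT was 1.49 (limma adjusted p = 0.139).

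**Figure D3:**
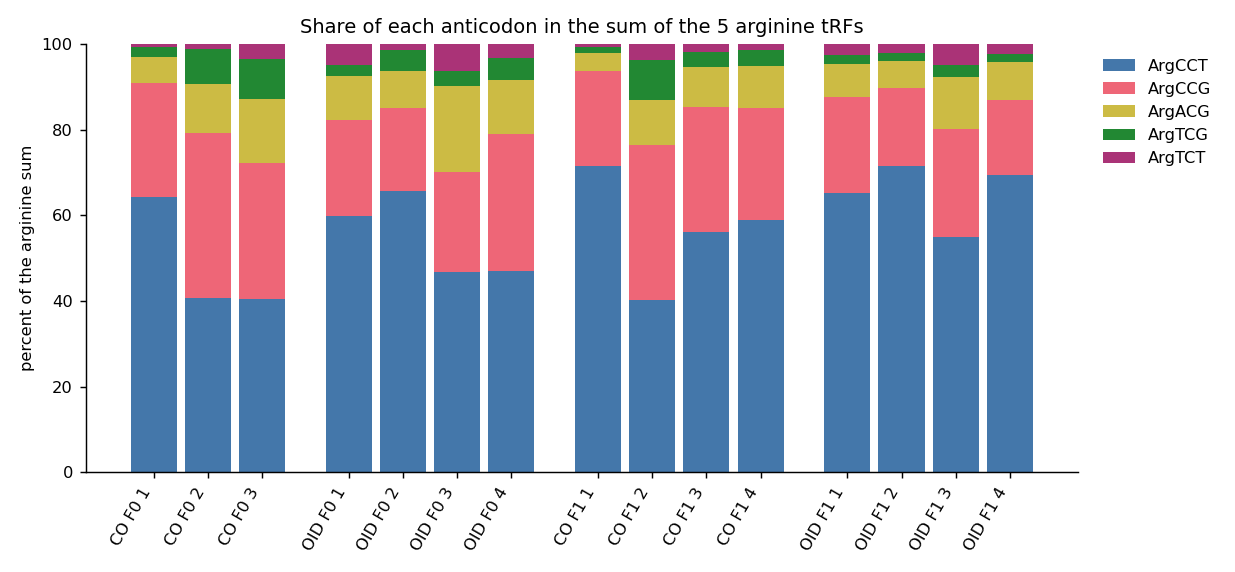
Percent of the summed normalized values of the 5 arginine tRFs taken by each anticodon, 1 bar per library, grouped by diet and generation. ArgCCT and ArgCCG take most of each bar, and the mean ArgCCG share is 32.4% in CO F0, 24.3% in OID F0, 28.4% in CO F1 and 20.9% in OID F1.

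Ratios between members do not depend on the scaling of a library. Of the 10 member pairs, 0 were without overlap between diets in F0, where 18.1% of all 1081 pairs of tRFs were, and 2 in F1, where 11.8% were. The 2 pairs were ArgCCG with ArgTCT and ArgTCG with ArgTCT. The ratio of ArgTCT to ArgTCG was 0.303, 0.156 and 0.385 in CO F0, 1.73, 0.255, 1.85 and 0.620 in OID F0, 0.630, 0.400, 0.529 and 0.358 in CO F1, and 1.06, 1.26, 1.77 and 1.30 in OID F1 libraries. Over both generations the log2 ratio of ArgTCG to ArgTCT was lower in OID by 1.58 (two-sided exact permutation p = 0.00245), and that of ArgCCG to ArgTCT by 1.41 (exact permutation p = 0.00653). In contrast, the log2 ratio of ArgCCG to ArgTCG differed by 0.18 (exact permutation p = 0.599), within the spread between libraries. The log2 ratio of ArgACG to ArgTCG was higher in OID by 0.79 (exact permutation p = 0.0163). That of ArgACG to ArgCCG was higher by 0.61 (exact permutation p = 0.0188). That of ArgACG to ArgTCT was lower by 0.79 (exact permutation p = 0.0171). That of ArgCCG to ArgCCT was lower by 0.64 (exact permutation p = 0.04). For ArgCCT with ArgTCG, ArgTCT and ArgACG the exact permutation p was 0.149, 0.233 and 0.946. These p-values are not adjusted for the 10 pairs compared.

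Library depth moved with several of these values. Among libraries with 100000 to 1000000 tRF reads, ArgCCG was at 2517 to 3757 in 4 CO libraries and at 1366 to 1436 in 2 OID libraries, and among those over 1000000 it was at 4339 in 1 CO library and at 1055 to 1739 in 6 OID libraries. ArgTCG overlapped in the first of these bands, at 300 to 582 in CO and 223 to 379 in OID, and in the second was at 242 in CO and 126 to 193 in OID. The ratio of ArgTCT to ArgTCG likewise overlapped in the first band (0.156 to 0.529 in CO, 0.255 to 0.620 in OID), and in the second was 0.630 in CO and 1.06 to 1.85 in OID. With log2 depth as a covariate over both generations, the log2 fold change of ArgCCG was -1.25 (SE 0.26, limma adjusted p = 0.00523) and that of ArgTCG -0.61 (SE 0.26, limma adjusted p = 0.0955), so that the call for ArgTCG was lost. In the same fit ArgCCT was at -1.04 in place of -0.42 (limma adjusted p = 0.0780) and the arginine sum at -1.0 (limma adjusted p = 0.0291). Among the 13 libraries with at least 100000 tRF reads, ArgTCG kept a log2 fold change of -1.03 (limma adjusted p = 0.0204). Under 100000 reads there were 2 libraries, both CO. The 2 OID libraries with 100000 to 1000000 reads were both F0, and over 1000000 reads 1 CO library stood against 6 OID libraries. Depth and diet therefore cannot be fully told apart in these libraries, whether by the bands, the minimum depth or the covariate.

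**Figure D4:**
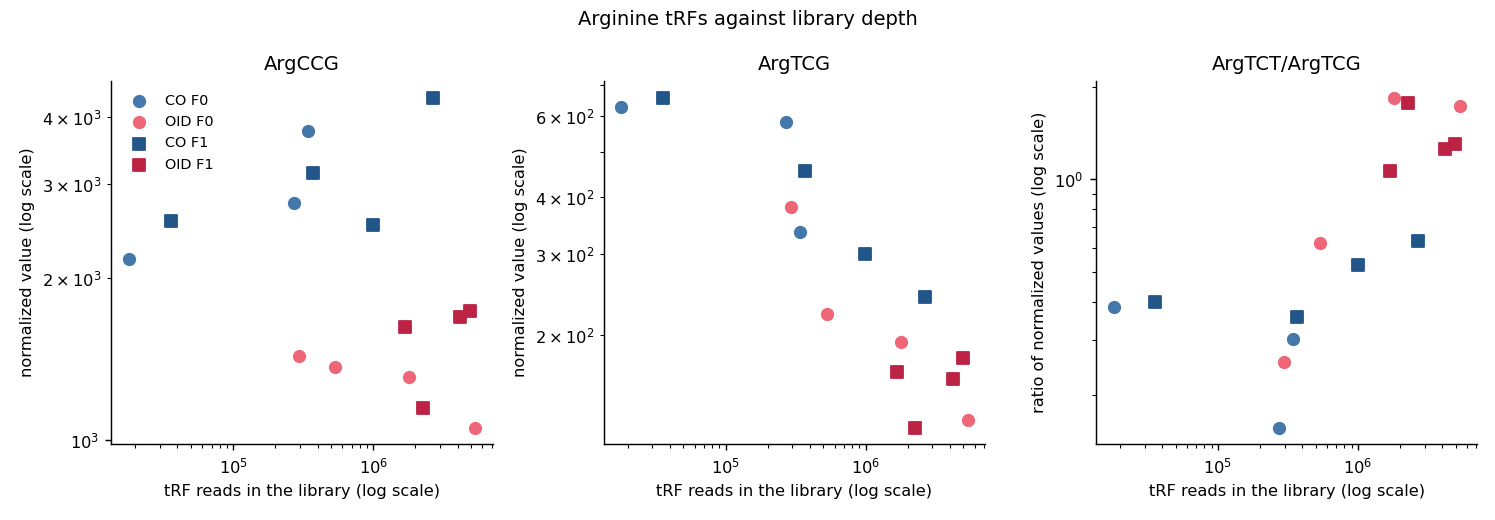
Normalized value of ArgCCG and ArgTCG and the ratio of ArgTCT to ArgTCG against the tRF reads of each of the 15 libraries (log axes; circles F0, squares F1; CO in blue, OID in red). ArgCCG is lower in OID both at 100000 to 1000000 reads and above, ArgTCG declines from 627 and 657 in the 2 shallowest libraries to 126 to 193 in the 6 OID libraries over 1000000 reads, and the ratio is above 1 in those 6 libraries only.

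Lists related to arginine by coding were described by their counts. In the CGN box, 2 of the 3 tRFs passed over both generations, both lower, with a median log2 fold change of -1.06, where 10.6% of all 47 tRFs passed. With log2 depth as a covariate ArgCCG was the 1 of the 3 that passed. In the AGR box 0 of 2 passed, with values of -0.42 and 0.33. Among tRFs of the other basic amino acids (HisGTG, LysCTT, LysTTT) 0 of 3 passed, with a median of -0.38. Among the 9 leucine and serine tRFs, the other amino acids with 6 codons, 1 passed, SerCGA, which was higher (log2 fold change 1.00), with a median of -0.07. Of the 4 tRFs outside arginine whose anticodon holds a CG dinucleotide (AlaCGC, ProCGG, SerCGA, ThrCGT), SerCGA was again the 1 that passed, with a median of -0.15. Over all 47 tRFs the median was 0.05.

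The members also varied together to different degrees. Over the 15 libraries, the Pearson correlation of log2 values was 0.65 between ArgCCG and ArgCCT, 0.60 between ArgCCG and ArgTCG, 0.57 between ArgACG and ArgCCG and 0.54 between ArgACG and ArgTCG. It was -0.03 between ArgCCT and ArgTCG, and ArgTCT had correlations of -0.40 with ArgCCG, -0.32 with ArgTCG and -0.31 with ArgCCT. Outside arginine, among the 24 tRFs that had 10 reads or more in all 15 libraries, ArgCCG was most like AspGTC (0.72) and HisGTG (0.64), ArgCCT like HisGTG (0.66) and LeuAAG (0.64), and ArgTCT like GlyTCC (0.67) and SerGCT (0.50). ArgACG was most like LeuTAG (0.56) and LysCTT (0.54), and ArgTCG like AlaAGC (0.46) and ProTGG (0.45). These correlations are descriptions over 15 libraries that share diet groups and differ in depth.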

How the data were processed

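The 15 small RNA libraries of mouse sperm (3 CO F0, 4 OID F0, 4 CO F1, 4 OID F1) were analysed, grouped by the sample labels. Fragments of 30 to 45 nucleotides had been cut from a gel on which barcoded samples were pooled. According to the methods, reads were trimmed with Trimmomatic, aligned to GRCm38/mm10 and annotated with blastn, and the submitters' processing notes name Bowtie2 2.3.4.1, DESeq2 and mm10. The authors deposited 1 table of a normalized signal per tRF and library, which the study calls TPM. A TPM column cannot exceed 1000000 in sum, which 1 library did, so another unit was assumed. After subtraction of 0.5, all 705 tRF values (100%) were whole multiples of 1 step per library to within 0.001 reads. This search was tested on simulated libraries. The multiples are called reads here. The methods describe weighted reads, and whether these were rounded to whole counts is not stated. Wilson intervals and limma-voom take the multiples as plain counts. The 4 mature tRNA entries and 164 miRNAs were not used.

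Differences were tested with limma 3.58.1 in R 4.3.3 (functions lmFit and eBayes, no trend), after adding 1 to each value and taking log2, with Benjamini-Hochberg adjustment over all 47 tRFs, 21 amino acid sums or 38 shares, and a threshold of 0.05. Fold changes on this scale understate those of low tRFs. Limma-voom was scaled to the tRF reads of each library. For a single quantity, the exact permutation test was two-sided and enumerated all assignments of the labels. Its code was compared with scipy 1.17.1 on an example, without the permutation within generation. In 50 simulated tables, where 10 of the 47 tRFs were given a log2 change of 2, limma recovered 75.2% of them in F0, 91.8% in F1 and 98.2% over both generations. The largest limma log2 fold change of a member within a generation was -1.29 (ArgTCG in F1). Changes of that size were not simulated, so these rates do not tell how often they would be called. Intervals are 95% Wilson intervals. Figures were drawn with matplotlib 3.10.9.

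The 5 members were named in each comparison, and for each of them the 2 tRFs outside arginine with the highest Pearson correlation among those that had 10 reads or more in each of the 15 libraries. The members and lists were chosen with earlier results of these data known. Alternatives were pseudocounts of 0.1 and 10, a mean value of at least 100, 1 fit over all 4 groups, limma-voom, scaling by the median of ratios or to a total that leaves out GlyGCC and GluCTC, a block for the replicate number, a covariate for log2 depth, a minimum of 100000 tRF reads per library, values less the offset, shares of the tRF sum, and each library left out. The bands of depth were added after the data were seen.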

Additional observations from a re-analysis of the deposited data

Results flagged for a closer look

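In 30 groups of 4 libraries (log2 level and share of the arginine sum of each member), 4 held a library whose gap to its nearest neighbour took up more of the range of the group than Dixon's 95% critical value allows, where chance gives about 1 in 20. ArgACG was highest in OID F1 replicate 4 (901 against 549 to 584 in the others), with 0.876 of the range. ArgCCG was lowest in OID F1 replicate 3 (1147), with 0.830 of the range, and the ArgTCT share of the arginine sum was highest in the same library (4.90%), with 0.901 of the range. ArgTCT was highest in CO F1 replicate 2 (263, from 14 reads), with 0.879 of the range. No explanation of these values was tested.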

How the results depend on the processing

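The calls of ArgCCG over both generations (adjusted p under 0.05) held in all 24 alternatives, and those of ArgTCG in 23, the exception being log2 depth as a covariate. Counts of called tRFs moved by more than 1.5 times as follows. Over both generations 5 tRFs were called, and 8 with a pseudocount of 10, 3 after rescaling without GlyGCC and GluCTC, 13 with log2 depth as a covariate and 3 with limma-voom; leaving out each library gave 2 (CO F0 replicates 2 and 3) to 10 (CO F1 replicate 2), with 3 without OID F0 replicate 4 and 9 without OID F1 replicate 4. In F0 the 0 calls became 6 with all 4 groups in 1 fit, and between 0 and 2 with a library left out, namely 1 without CO F0 replicate 1 and 2 without OID F0 replicate 3. In F1 the range was 0 to 1, the 1 call being ArgTCG without CO F1 replicate 1. For amino acid sums, the 0 calls in F0 became 4 with all 4 groups in 1 fit, 3 with the depth covariate and 0 to 2 with a library left out, the 0 in F1 became 1 with limma-voom, and the 3 over both generations became 7 with the depth covariate, 6 with limma-voom and 0 to 5 with a library left out (0 without CO F0 replicate 2 or OID F1 replicate 1, 1 without OID F1 replicate 3, 5 without CO F1 replicate 2). For shares within an amino acid, the 0 calls became 1 in F0 and 1 in F1 among libraries with at least 100000 tRF reads and 5 in F1 with the depth covariate, ArgTCT among them, and 1 over both generations with either. Leaving out a library gave 0 to 1 in F0 (1 without CO F0 replicate 3), 0 to 1 in F1 (1 without CO F1 replicate 2) and 0 to 2 over both generations (1 without CO F1 replicate 2 or OID F0 replicate 3, 2 without OID F0 replicate 4, of which ArgCCG was 1). The interaction and the F1 against F0 comparison gave 0 in every alternative.

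The arginine share of the tRF sum differed by -0.718 percentage points in F0, -0.768 in F1 and -0.743 over both (OID minus CO), and by -3.02, -1.85 and -2.43 when GlyGCC and GluCTC were left out of the sum. With a library left out the difference lay between -1.06 and -0.144 in F0, -1.05 and -0.468 in F1, and -0.916 and -0.456 over both.

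Directions turned only for values that had not passed the test. With a library left out, the log2 fold change of ArgCCT lay between -0.82 and 0.045 in F0 (the highest without CO F0 replicate 1) and between -0.70 and 0.064 in F1 (the highest without CO F1 replicate 1), in limma and as the difference in the exact test. In log2 share, with log2 depth as a covariate, ArgTCG turned to 0.35 in F0, 0.43 in F1 and 0.39 over both, and ArgCCT to -0.12 in F1 and -0.038 over both. ArgACG ranged from -0.090 (without CO F0 replicate 1) to 0.55 in F0 (without CO F0 replicate 3), and turned in F1 to -0.22 without CO F1 replicate 1 and -0.08 without OID F1 replicate 3. As percentage points of the arginine sum, ArgACG reached up to 4.14 in F0, 1.09 in F1 and 2.20 over both with a library left out, and turned to -0.255 (without CO F0 replicate 1) and -0.286 (without OID F0 replicate 3) in F0, to -1.16 (without CO F1 replicate 1) and -0.854 (without OID F1 replicate 3) in F1, and to -0.00933 over both (without OID F0 replicate 3). In F1 against F0, ArgACG turned to 0.015 with at least 100000 reads, and ranged from -0.13 to 0.084 (the latter without OID F0 replicate 3) with a library left out. The cause was not tested. The median log2 fold change of all tRFs was 0.02 in F0 and 0.08 in F1, and became -0.33 and 0.15 after rescaling without GlyGCC and GluCTC and -0.15 and -0.17 with limma-voom, without turning a member.

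Replicate numbers are shared between groups, but same-numbered libraries did not deviate together throughout (correlations of 0.23, 0.09 and -0.15 in F0 and -0.18, -0.27, 0.30 and 0.25 in F1), so they were not treated as pairs. With the replicate block 2 tRFs were called over both generations in place of 5, ArgCCG and ArgTCG, and 0 amino acid sums in place of 3, and no other count moved. Low depth limits ArgTCG and ArgTCT most.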

Other observations

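Some arginine tRNA loci of different anticodons are neighbours in GRCm38 (NCBI RefSeq). On chromosome 11, an ArgCCT locus (n-TRcct3, 115413304 to 115413376) and an ArgTCG locus (n-TRtcg4, 115413779 to 115413851) are 402 bases apart, and a further ArgCCT locus (n-TRcct5) lies 250 bases from the first. On chromosome 17, an ArgCCT locus (n-TRcct2) and an ArgCCG locus (n-TRccg2) are 1422 bases apart, and on chromosome 13, which holds 8 of the 24 loci, an ArgACG locus (n-TRacg4) and an ArgTCG locus (n-TRtcg3) are 3385 bases apart. In GENCODE M21, 6 of the 24 loci overlap an annotated gene, among them introns of 1700064H15Rik, Fmc1 and Aim2 and an untranslated region of Hes7. The values sum the loci of an anticodon, so no locus could be set against a diet difference.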
